A study of Mus musculus with 12 samples.

Results

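The miR-30 family was followed in small RNA libraries from mouse colon and whole blood. Its members were 10 rows of the deposited count table, chosen by name as the 5p and 3p arms of the Mir30 genes, out of 1978 mature miRNA rows: mmu-mir-30a-5p, mmu-mir-30a-3p, mmu-mir-30b-5p, mmu-mir-30b-3p, mmu-mir-30c-5p, mmu-mir-30c-2-3p, mmu-mir-30d-5p, mmu-mir-30d-3p, mmu-mir-30e-5p and mmu-mir-30e-3p, written from here on as miR-30a-5p and so on. All 10 were found, and all 10 passed the filter on low counts in both tissues. A further pair of Mir30 rows, miR-30c-1-3p and miR-30f, was not among the chosen names, and values for them are given only as outside the members. The libraries came from male C57BL/6 mice that were 8 weeks old when obtained. Mice 1, 7 and 9 had received dextran sulfate sodium (DSS), a polysaccharide that injures the colon epithelium and induces colitis, at 1.5% (wt/vol) in the drinking water for 7 days, with sacrifice on day 8. Mice 2, 4 and 8 served as controls: no DSS was added to their water, and they were killed at the same time. Colon and blood of each mouse were sequenced, which gives 3 DSS and 3 control libraries per tissue and 12 in all.

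This grouping is the one named in the study's heatmaps. The disease field of the labels differs, with mice 1, 2 and 4 given as colitis and mice 7, 8 and 9 as controls, and a label field names the opposite tissue for every library. With the grouping of the labels, 0 of 542 miRNAs in colon passed the edgeR test, against 64 with the grouping used here. The latter was 46 without mouse 1, 38 without mouse 9 and 0 when mouse 2, 4, 7 or 8 was left out. In blood both groupings gave 0 of 484, so these counts do not settle which grouping holds. The tissues were checked against marker miRNAs: the erythroid miR-486a-5p and miR-486b-5p together held 74.7% to 83.0% of the counts in blood and 0.25% to 0.44% in colon. These names share 1 mature sequence, so the same reads are counted under both, and with each sequence counted once it held 59.2% to 71.0% in blood and 0.12% to 0.22% in colon. The 9 epithelial miRNAs checked summed to 55653 to 204162 CPM (counts scaled to a library total of 1000000) in colon and to 950.4 to 1324 CPM in blood. Total counts were 15060553 to 20106226 per colon library and 21127134 to 32944792 per blood library as deposited. With each mature sequence counted once they were 15006514 to 19987322 per colon library and 12576492 to 19440594 per blood library. Each library came from the whole organ or from whole blood, so fewer cells of a type and less miRNA per cell cannot be told apart.

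A miRNA is a short RNA cut from a hairpin precursor. Either strand of the hairpin, the 5p or the 3p arm, can be loaded into an Argonaute protein, and the loaded strand finds its messenger RNAs mainly by pairing of its seed, the bases near its 5′ end. Members of a family share a seed and are therefore thought to share many targets. The miR-30 family is broadly expressed, is abundant in many epithelia, and is known for work on epithelial differentiation and autophagy.

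The sequences show why the 10 rows fall into several families by seed. The 5p arms of all 5 members carry the same seed, GUAAACA, shown here in capitals (bases 2 to 8, counted from the 5′ end).
miR-30a-5p: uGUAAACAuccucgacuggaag
miR-30d-5p: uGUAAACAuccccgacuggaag
miR-30e-5p: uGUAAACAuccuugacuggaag
miR-30b-5p: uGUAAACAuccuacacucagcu
miR-30c-5p: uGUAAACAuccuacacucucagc

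Past the seed, miR-30a-5p, miR-30d-5p and miR-30e-5p are near copies. From miR-30a-5p to miR-30d-5p the only difference is U12C, and from miR-30a-5p to miR-30e-5p it is C13U, with positions counted from the 5′ end and the base of miR-30a-5p given first. miR-30b-5p and miR-30c-5p form the other subgroup: they share their first 18 bases, and over 22 aligned positions they differ from miR-30a-5p at 7 and 5 positions, respectively. Of 1405 miRNAs with a sequence in the deposited normalized tables, 6 carry this seed. The sixth is miR-384-5p, which had 0 to 121 counts per library.

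The 3p arms split into other seeds. Those of Mir30a, Mir30d and Mir30e share UUUCAGU, and that of Mir30b stands alone.
miR-30a-3p: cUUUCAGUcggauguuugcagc
miR-30d-3p: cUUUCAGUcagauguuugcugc
miR-30e-3p: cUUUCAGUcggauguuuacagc
miR-30b-3p: cUGGGAUGuggauguuuacguc
miR-30c-2-3p: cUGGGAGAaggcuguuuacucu

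Within the first seed group, miR-30e-3p differs from miR-30a-3p by G18A alone, with the base of miR-30a-3p first. The seed of miR-30c-2-3p, UGGGAGA, is shared with miR-30c-1-3p, which is outside the members. Of these 10 sequences, 6 were listed in RefSeq (GRCm38.p6) and were identical there. Because several members differ by a single base, reads could be shared between them in counting, and the extent was not tested. Whole sharing is not what the table holds: in all 12 libraries the count of miR-30e-5p (4555 to 20136) was below that of miR-30a-5p (17470 to 110771).

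The hairpins lie in 3 pairs in the mouse genome (GRCm38, GENCODE annotation). Mir30a (chromosome 1, 23272269 to 23272339, plus strand) lies 19362 bases before Mir30c-2 (23291701 to 23291784, plus strand). The former lies in no other annotated gene, and the latter overlaps an exon of the long noncoding RNA Gm27028. On chromosome 15, Mir30b (68337415 to 68337510) and Mir30d (68341208 to 68341289) lie 3698 bases apart on the minus strand, with Mir30d in an exon of the long noncoding RNA Gm20732. On chromosome 4, Mir30c-1 (120769534 to 120769622) and Mir30e (120772606 to 120772697) lie 2984 bases apart on the minus strand in an intron of Nfyc, a subunit gene of the NF-Y transcription factor. miR-30c-5p is made from both Mir30c-1 and Mir30c-2, so its count cannot be assigned to either hairpin. The annotation also places Mir30f on the strand opposite to Mir30e, and its row held 0 to 4 counts per library.

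The first question was how abundant each member was. Levels are given in CPM with TMM factors, where TMM is a scaling factor per library computed within each tissue. Each member is counted over 22 or 23 bases, so lengths hardly differ. How evenly the sequences were captured was not measured, so the order is one of read counts. In colon, miR-30d-5p was the most abundant member (10485 to 16510 CPM) and ranked 14th of 542 miRNAs by mean CPM. It was followed by miR-30a-5p (4029 to 6943 CPM), miR-30c-5p (2188 to 4338 CPM), miR-30a-3p (594.8 to 1355 CPM), miR-30e-5p (511 to 944 CPM) and miR-30e-3p (347 to 706 CPM). The ranges of miR-30a-5p and miR-30c-5p overlapped, although the former was higher in each of the 6 libraries. Those of miR-30a-3p, miR-30e-5p and miR-30e-3p overlapped as well. Within libraries miR-30a-3p lay above miR-30e-3p in 6 of 6, while miR-30e-5p lay below the former in 5 of 6 and above the latter in 5 of 6, so that the place of miR-30e-5p between them is not beyond its spread. miR-30b-5p (83.5 to 128 CPM) and miR-30c-2-3p (64.2 to 128 CPM) also overlapped, and miR-30b-3p (21.6 to 35.5 CPM) and miR-30d-3p (7.90 to 10.7 CPM) were the lowest. The 3p arm of Mir30d, whose 5p arm was the most abundant member, was the least abundant of the 10.

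In blood, miR-30d-5p was again first (6496 to 13519 CPM) and ranked 7th of 484 miRNAs. There, miR-30c-5p (1908 to 2530 CPM) came next, and then miR-30a-5p (807 to 1974 CPM), with ranges that overlapped. miR-30a-3p (335 to 582 CPM) and miR-30e-5p (262 to 655 CPM) overlapped, miR-30e-3p held 159 to 229 CPM, and miR-30b-5p held 39.1 to 83.7 CPM. The low end was miR-30c-2-3p (10.8 to 18.4 CPM), miR-30b-3p (8.63 to 14.8 CPM) and miR-30d-3p (3.11 to 8.18 CPM). The former pair overlapped, although miR-30c-2-3p was higher in each of the 6 libraries, and miR-30d-3p lay below both.

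**Figure D1:**
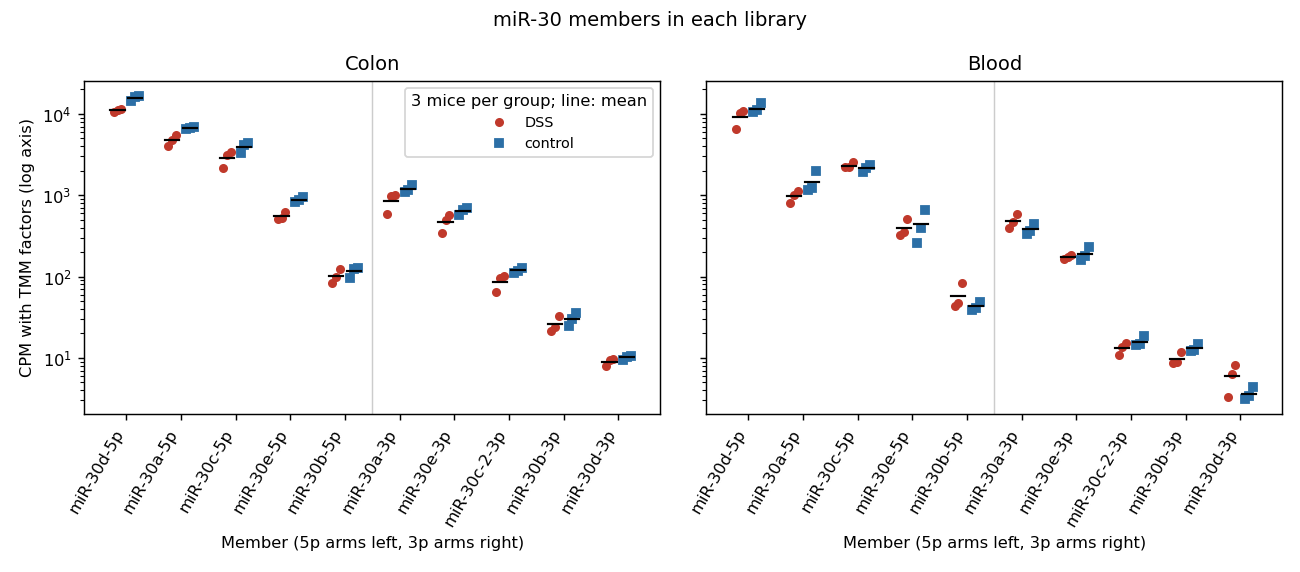
Level of each member in each library, in CPM with TMM factors on a log axis, with colon on the left and blood on the right; red circles are DSS mice, blue squares control mice (3 each, drawn in order of value), and lines are means. In colon the DSS means lie below the control means for all 10 members, and miR-30d-5p is the highest and miR-30d-3p the lowest member in both tissues.

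The second question was what DSS changed in colon. With the grouping used here, every member had a lower mean in the DSS mice, and miR-30e-5p fell by the test across all miRNAs. With the grouping of the labels 9 members were higher and 1 lower, with 0 called. In the DSS mice 1, 7 and 9 miR-30e-5p measured 522, 511 and 627 CPM, and in the control mice 2, 4 and 8 it measured 944, 824 and 865 CPM. All 3 DSS libraries lay below all 3 controls with TMM factors. Scaled by total counts alone, DSS mouse 9 (806 CPM) lay above control mice 4 (772 CPM) and 8 (761 CPM). The colon library of mouse 9 had the highest TMM factor in colon (1.29). The log2 fold change was -0.67 (SE 0.13), a 1.59-fold lower level, with an adjusted p of 0.0431 by the quasi-likelihood test of edgeR, adjusted over 542 miRNAs after Benjamini and Hochberg. miR-30e-5p was the only member called of 10, where 11.8% of all miRNAs tested were called and 4.24% were called lower. It also passed with a fold change over 1.5 required in addition (background again 4.24% lower). This call was lost when any of mice 1, 2, 4, 7 or 8 was left out (adjusted p 0.0521 to 0.151) and held without mouse 9 (0.0281). It was also lost with upper-quartile factors, total counts alone, limma or all 12 libraries in 1 fit (adjusted p 0.0588 to 0.366).

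The other 2 members of the near-identical subgroup lay just outside the threshold. miR-30d-5p measured 11296, 11611 and 10485 CPM in DSS mice 1, 7 and 9 and 14490, 16510 and 16232 CPM in control mice 2, 4 and 8. The groups did not overlap, and the log2 fold change was -0.50 (SE 0.13, adjusted p = 0.0553 by edgeR). miR-30a-5p measured 4833, 5428 and 4029 CPM in the DSS mice and 6785, 6538 and 6943 CPM in the controls. Again the groups did not overlap, and the log2 fold change was -0.50 (SE 0.15, adjusted p = 0.0723 by edgeR). With DESeq2, the test of the study, miR-30a-5p, miR-30d-5p and miR-30e-5p all passed, with adjusted p of 0.0124, 0.00358 and 0.000512, where it called 95 of 542 miRNAs (17.5%).

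The 5p arms of the other subgroup were more spread. miR-30c-5p measured 3360, 3161 and 2188 CPM in DSS mice 1, 7 and 9 and 4113, 4338 and 3301 CPM in controls 2, 4 and 8. DSS mouse 1 lay above control mouse 8, and the log2 fold change of -0.43 (SE 0.20) had an adjusted p of 0.179 by edgeR. miR-30b-5p measured 83.5, 123 and 99.9 CPM in the DSS mice and 124, 96.4 and 128 CPM in the controls, with a log2 fold change of -0.19 (SE 0.20, adjusted p = 0.534 by edgeR). Its groups overlapped.

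None of the 5 3p arms passed the test in colon. miR-30a-3p measured 995, 974 and 594.8 CPM in the DSS mice 1, 7 and 9 and 1081, 1161 and 1355 CPM in controls 2, 4 and 8, a log2 fold change of -0.49 (SE 0.22) with an adjusted p of 0.170 by edgeR. The libraries of miR-30e-3p (347 to 569 CPM with DSS, 576 to 706 CPM in controls) and miR-30c-2-3p (64.2 to 101 CPM with DSS, 112 to 128 CPM in controls) did not overlap either, with log2 fold changes of -0.47 each and adjusted p of 0.157 each by edgeR. In all 3 of these the lowest library was DSS mouse 9. miR-30b-3p (log2 fold change -0.21) and miR-30d-3p (-0.18) overlapped between the groups. Outside the members, miR-30c-1-3p had a log2 fold change of -0.57 (SE 0.21, adjusted p = 0.122 by edgeR).

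Counted over the family, all 10 members had a log2 fold change below 0, where 47.6% of all miRNAs did. In 6 of 10 every DSS library lay below every control library, where 16.1% of all miRNAs did, and 5 of 10 were lower with an unadjusted p under 0.05, where 12.7% of all miRNAs were. The last count was 0 of 10 with total counts alone, 1 of 10 in 1 fit of 12 libraries and 3 to 7 with a mouse left out. The median log2 fold change was -0.47 over the members and 0.04 over all miRNAs tested. Mouse 9 carried much of this: without it all 10 stayed below 0, but the median of the members was -0.29, with miR-30a-3p at -0.29, miR-30c-5p at -0.27, miR-30c-2-3p at -0.29, miR-30e-3p at -0.29, miR-30b-3p at -0.0950 and miR-30d-3p at -0.10, while miR-30e-5p was at -0.77. Scaling bears on the sign: with total counts alone the median was 0.26 over all miRNAs and -0.28 over the members, and 8 members were then below 0 and 2, miR-30b-5p and miR-30d-3p, above. The 10 rows come from the same libraries and share their scaling factors, so the counts in this paragraph are not of independent rows.

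Some cell type markers also differed between DSS and control mice in colon. The 9 epithelial miRNAs summed to 136222, 79856 and 55653 CPM in DSS mice 1, 7 and 9 and to 163013, 204162 and 185230 CPM in controls 2, 4 and 8. Of the 9, 8 had a log2 fold change below 0 and 4 were called lower, with a median of -1.08. The 5 leukocyte miRNAs summed to 361 to 1209 CPM with DSS and 288 to 428 CPM in controls, and 2 of them were called higher. The 4 smooth muscle miRNAs all had a log2 fold change below 0, with a median of -0.35, and summed to 256356 to 348817 CPM with DSS and 279543 to 358222 CPM in controls, which overlapped. None of these 4, the 3 tested erythroid or the 2 endothelial and platelet miRNAs was called, although the last summed to 6861 to 7340 CPM with DSS and 5144 to 5558 CPM in controls, without overlap, and no marker of the 5 lists was at 0 in all colon libraries. Mouse 9 had both the lowest epithelial and the highest leukocyte sum. Among the DSS mice, mouse 9 was highest for miR-30e-5p (627 CPM) but lowest for miR-30a-5p (4029 CPM) and miR-30d-5p (10485 CPM). The part of cell composition in the miR-30 values was not tested.

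**Figure D2:**
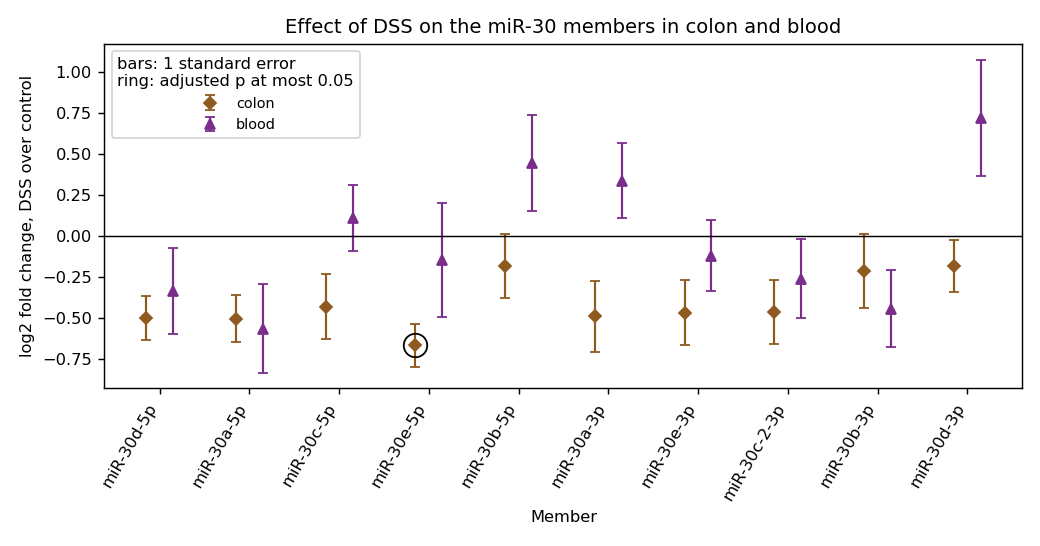
Log2 fold change of DSS over control for each member in colon (brown diamonds) and blood (purple triangles) from edgeR, with bars of 1 standard error and a ring where the adjusted p was at most 0.05. All 10 colon values lie below 0, from -0.67 to -0.18, and only miR-30e-5p in colon is ringed; the blood values lie on both sides of 0, from -0.56 to 0.72.

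The third question was whether the same held in blood. It did not show a shift of the whole family: 6 members were lower and 4 higher in the DSS mice, where 55.0% of all miRNAs were lower, with a median log2 fold change of -0.14 against -0.05 over all miRNAs. No member passed the edgeR test, as none of 484 miRNAs did (0.00% called, with 56 at an unadjusted p under 0.05, or 11.6%). DESeq2 called 12 miRNAs in blood, and no member was among them.

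The member furthest down in blood was miR-30a-5p. It measured 1129, 1020.4 and 807 CPM in DSS mice 1, 7 and 9 and 1974, 1230.1 and 1169 CPM in controls 2, 4 and 8. All DSS libraries lay below all controls, though by little between DSS mouse 1 and control mouse 8, and the log2 fold change was -0.56 (SE 0.27, adjusted p = 0.435 by edgeR). Without control mouse 2 it was -0.24, and miR-30b-3p, at -0.31, was then furthest down. miR-30b-3p also did not overlap (8.63 to 11.7 CPM with DSS, 12.3 to 14.8 CPM in controls), with a log2 fold change of -0.44 (SE 0.24, adjusted p = 0.498 by edgeR). These were 2 of 10 members, where 9.92% of all miRNAs lay lower without overlap.

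The member furthest up in blood was miR-30d-3p, which rests on few counts, 54 to 325 per library. It measured 8.18, 3.29 and 6.42 CPM in DSS mice 1, 7 and 9 and 4.4, 3.11 and 3.36 CPM in controls 2, 4 and 8. The groups overlapped through mouse 7, and the log2 fold change was 0.72 (SE 0.36, adjusted p = 0.450 by edgeR). Mouse 1 also stood highest for miR-30b-5p, with 83.7 CPM against 39.1 to 49.0 CPM in the other 5 blood libraries, and lowest for miR-30d-5p, with 6496 CPM against 10202 to 13519 CPM in the others. The remaining log2 fold changes in blood were 0.45 for miR-30b-5p, 0.34 for miR-30a-3p, 0.11 for miR-30c-5p, -0.12 for miR-30e-3p, -0.15 for miR-30e-5p, -0.26 for miR-30c-2-3p and -0.34 for miR-30d-5p, each with overlapping groups. Without mouse 1, miR-30b-5p was 0.15, miR-30d-5p -0.0825 and miR-30d-3p 0.47, and miR-30e-5p ran from -0.35 to 0.31 with a mouse left out. The blood library of mouse 1 also had the highest TMM factor of the 6 (1.33, against 0.73 for the lowest, mouse 4). The 9 epithelial markers summed to 950.4 to 1123 CPM with DSS and 1129 to 1324 CPM in controls, with no overlap and none called. The 1 endothelial and platelet marker tested in blood also did not overlap, at 13.4 to 16.1 CPM with DSS and 30.8 to 56.6 CPM in controls (log2 fold change -1.45, not called). The smooth muscle, leukocyte and erythroid sums overlapped. The part of these markers in the blood values was not tested.

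Whether the effect of DSS differed between the tissues was tested directly, as an interaction over all 12 libraries. No member passed the edgeR test, nor did any of 680 miRNAs (0.00% called, with 94 at an unadjusted p under 0.05, or 13.8%), and 3 members had an unadjusted p under 0.05. DESeq2 called 36 miRNAs and no member. For all 10 members the difference was towards a higher value in blood, with a median of 0.78 on the log2 scale against 0.22 over all miRNAs, and 8 of 10 kept that sign with RLE or total count scaling. With RLE the medians were 0.34 over the members and -0.18 over all miRNAs. A difference between colon and blood in the response of the family to DSS was therefore not shown at this depth and number of mice.

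The fourth question was how the family differs between the tissues, and here shares within the family were used because they do not depend on how the libraries are scaled. Blood and colon were preserved in different reagents and extracted with different kits. Tissue and handling therefore cannot be told apart in any comparison between them. In the pool of the 5 5p arms, which share a seed, miR-30d-5p took 57.4% ± 2.12 (SD, n = 6) in colon and 72.1% ± 5.79 (SD, n = 6) in blood. The share was higher in blood in all 6 mice and the libraries did not overlap (54.8% to 60.2% in colon, 60.4% to 75.2% in blood), although blood of mouse 1, the lowest, came within a percentage point of the highest colon library. The exact permutation test over 6 and 6 libraries gave p = 0.00216, the smallest it can give, and 0.00541 adjusted over 5 members. The share of miR-30a-5p went the other way, from 24.5% ± 1.30 (SD, n = 6) in colon to 8.47% ± 1.95 (SD, n = 6) in blood. It was lower in blood in 6 of 6 mice with no overlap (23.1% to 26.1% in colon, 5.94% to 10.9% in blood). The exact permutation test gave the same p values. The shares of a library divide a fixed whole, so the rise of miR-30d-5p and the fall of miR-30a-5p are not independent results. Differences between the tissues were also common, with 89.1% of all miRNAs called between blood and colon by edgeR. A background for the shares themselves was not computed.

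The other 5p arms kept shares that overlapped between the tissues. miR-30c-5p took 14.6% ± 1.85 in colon and 16.1% ± 4.24 in blood, miR-30e-5p 3.05% ± 0.48 and 2.95% ± 1.04, and miR-30b-5p 0.48% ± 0.09 and 0.38% ± 0.20 (SD, n = 6 each), with adjusted p of 0.639, 0.848 and 0.527 by exact permutation tests. When colon and blood were paired by mouse, exact sign-flip tests gave p = 0.0312 for miR-30a-5p and for miR-30d-5p, the smallest that 6 mice allow, and 0.0781 after adjustment. With 2 values at that smallest p among 5, the adjusted p cannot go lower, so the paired test could not call them. Counting error is small beside these differences: the 95% Wilson interval of any single share was at most ± 0.18 percentage points, for counting error only.

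**Figure D3:**
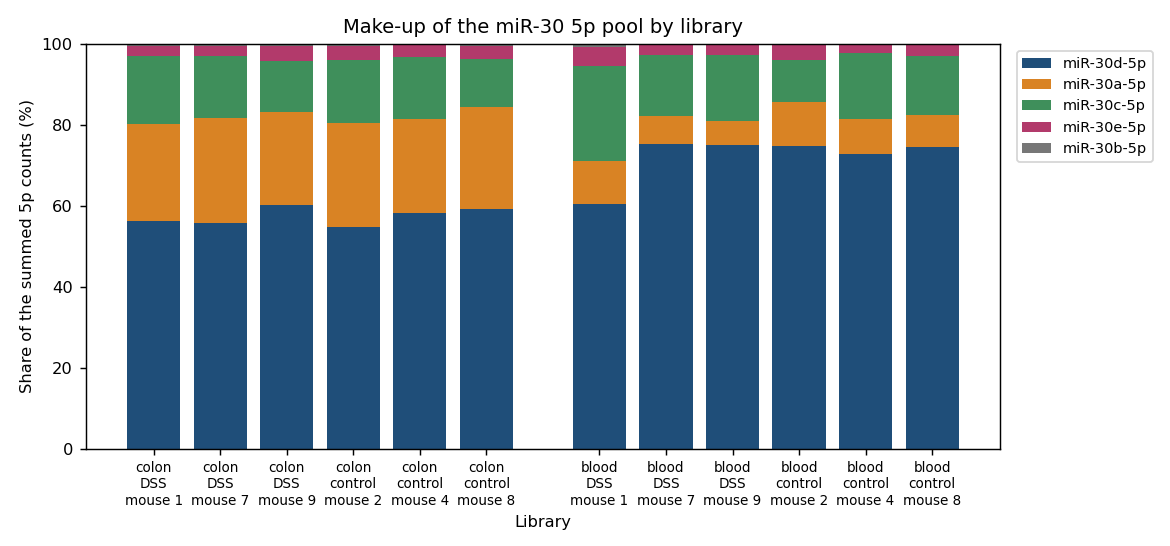
Share of each 5p arm in the summed counts of the 5 5p arms, in percent, as 1 stacked bar per library, with colon on the left and blood on the right. miR-30a-5p takes 23.1% to 26.1% of the pool in colon and 5.94% to 10.9% in blood, miR-30d-5p takes most of what is left, and bars of DSS and control mice look alike within a tissue, apart from blood of DSS mouse 1.

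DSS did not shift this make-up detectably. In colon the mean shares of the 5 arms differed between DSS and control mice by 0.52 percentage points or less, with every pair of groups overlapping. In blood they differed by up to 4.39 percentage points (miR-30c-5p, 18.3% ± 4.61 with DSS and 13.9% ± 3.04 in controls, SD, n = 3 each), again with all groups overlapping. Blood of DSS mouse 1 stood apart, with 60.4% miR-30d-5p and 23.5% miR-30c-5p, where the other 5 blood libraries had 72.8% to 75.2% and 10.5% to 16.5%. With 3 mice against 3 the exact two-sided test cannot go below p = 0.1.

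As a whole, the summed 5p arms made up 1.87%, 2.18% and 2.25% of all counts in colon of DSS mice 1, 7 and 9 and 2.60%, 2.66% and 2.42% in controls 2, 4 and 8. Here every mature sequence was counted once, since names that share a sequence repeat the same reads. The DSS libraries lay below all controls (2.10% ± 0.20 against 2.56% ± 0.12, SD, n = 3 each; exact permutation test, two-sided, p = 0.1, the smallest possible). In blood the summed share was 2.33% to 2.34% with DSS and 1.80% to 2.86% in controls, which overlapped. Between the tissues it was 2.33% ± 0.29 in colon and 2.38% ± 0.36 in blood (SD, n = 6 each; exact permutation test, p = 0.790). That comparison turns on the denominator, because miR-486 fills the blood libraries: with the totals as deposited the share was 0.88 percentage points lower in blood, and without miR-486 and miR-451a it was 4.57 percentage points higher (exact permutation test, p = 0.00216 for both).

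Single members were also compared between blood and colon by edgeR over 12 libraries, where 6 of 10 were called, 5 of them lower in blood, and 89.1% of all miRNAs were called. These values hang on the scaling as well: the median over all miRNAs moved from -1.59 with total counts alone to 0.33 with upper-quartile factors, and was -0.86 with TMM. With total counts 9 of 10 members were called, all 9 lower in blood, and with upper-quartile factors 9 were called, 8 of them higher, among them miR-30a-3p at 0.72 (adjusted p = 0.000668 by edgeR). miR-30c-2-3p (log2 fold change -2.07, SE 0.20, adjusted p = 9.49e-08) and miR-30a-5p (-1.48, SE 0.21, adjusted p = 5.61e-06) were lower in blood under every setting tried. The size moved, with miR-30c-2-3p at -0.85 with upper-quartile factors and -2.79 with total counts, and miR-30a-5p missed the edgeR test with upper-quartile factors (-0.29, adjusted p = 0.0943). miR-30d-5p was 0.39 (SE 0.17, adjusted p = 0.0433) relative to TMM but -0.36 with total counts, so no direction is given for it. With mouse as a replicate block 4 of 10 were called, and miR-30d-5p (adjusted p = 0.0610) and miR-30b-3p (adjusted p = 0.0635) no longer passed the edgeR test.

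The last comparison was of the arms of each hairpin, as the 5p count divided by the 3p count, which also needs no scaling between libraries. In colon the ratio ran from near parity for Mir30e (0.92 to 1.81) through Mir30b (2.52 to 5.21), Mir30a (4.86 to 6.77) and the Mir30c hairpins together (22.4 to 33.01, with both 3p arms summed) to Mir30d (1211 to 1627). Of these, Mir30b and Mir30a overlapped, and the other neighbours did not. The ratio of Mir30d rests on 130 to 204 counts of its 3p arm per colon library.

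Between the tissues the arm ratio moved in both directions within the family. For Mir30a it was 5.67 in colon and 2.78 in blood (geometric means, n = 6 each), a log2 difference of -1.03, and it was lower in blood in 6 of 6 mice with no overlap (1.74 to 4.49 in blood). For the Mir30c hairpins it was 29.0 in colon and 137 in blood, a log2 difference of 2.23, and higher in blood in 6 of 6 mice with no overlap (93.5 to 202 in blood). Both had p = 0.00216 in the exact permutation test and 0.00541 adjusted over 5 ratios. Mir30e was higher in blood by 0.79 on the log2 scale (1.28 in colon, 2.22 in blood, higher in 5 of 6 mice, adjusted p = 0.0180 by exact permutation test), with overlap.

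Mir30d was higher in blood by 0.71 on the log2 scale without passing (adjusted p = 0.0676 by exact permutation test), and Mir30b did not differ beyond its spread (0.16, adjusted p = 0.660 by exact permutation test). Such differences were common: of 66 hairpins with at least 10 counts of each arm in every library, 71.2% passed the same test and 53.0% did not overlap between the tissues. In the paired test within mice, the exact sign-flip p was 0.0312 for Mir30a and for the Mir30c hairpins and 0.0625 for Mir30e, or 0.0781, 0.0781 and 0.104 after adjustment. The first 2 are at the smallest value the design allowed, so the paired test could not call them. The call for Mir30e was also lost without mouse 7 or without mouse 8 (adjusted p = 0.0661 each by exact permutation test), and that for Mir30d was gained without mouse 1 (0.0265).

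The arm ratio of Mir30a separated the DSS from the control mice in blood without passing a test. It was 1.94, 2.58 and 1.74 in DSS mice 1, 7 and 9 and 4.49, 3.35 and 3.49 in controls 2, 4 and 8, so that all DSS libraries lay below all controls. The log2 difference was -0.86, and the exact two-sided test gave the smallest p it can, 0.1 (0.5 adjusted over 5 ratios). Of 89 hairpins measured in blood, 15.7% lay lower without overlap, and Mir30a ranked 15th by the size of the difference. Its 5p arm was lower (log2 fold change -0.56) and its 3p arm higher (0.34), neither past the edgeR test. In colon the Mir30a ratio was alike, 4.86, 5.57 and 6.77 with DSS and 6.28, 5.63 and 5.12 in controls, a log2 difference of 0.01. The difference between the tissues in this effect, -0.87 on the log2 scale, gave p = 0.1 in the exact permutation test over mice, again the smallest possible.

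The arm ratio of Mir30d was lower on average with DSS in both tissues, without overlap in colon alone. In colon it was 1213, 1211 and 1328 in DSS mice 1, 7 and 9 and 1520.1, 1627 and 1514 in controls 2, 4 and 8, a log2 difference of -0.31 without overlap, where 8.55% of 117 hairpins in colon lay lower without overlap (exact two-sided p = 0.1, 0.5 adjusted). In blood it was 794, 3336 and 1590 with DSS and 3070, 3352 and 3278 in controls, which overlapped through mouse 7. Without mouse 1 the log2 difference in blood went from -1.0 to -0.49. The difference between the tissues in this effect was -0.69 on the log2 scale (exact permutation test over mice, p = 0.4). Mir30b, Mir30e and the Mir30c hairpins overlapped between DSS and control mice in both tissues.

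**Figure D4:**
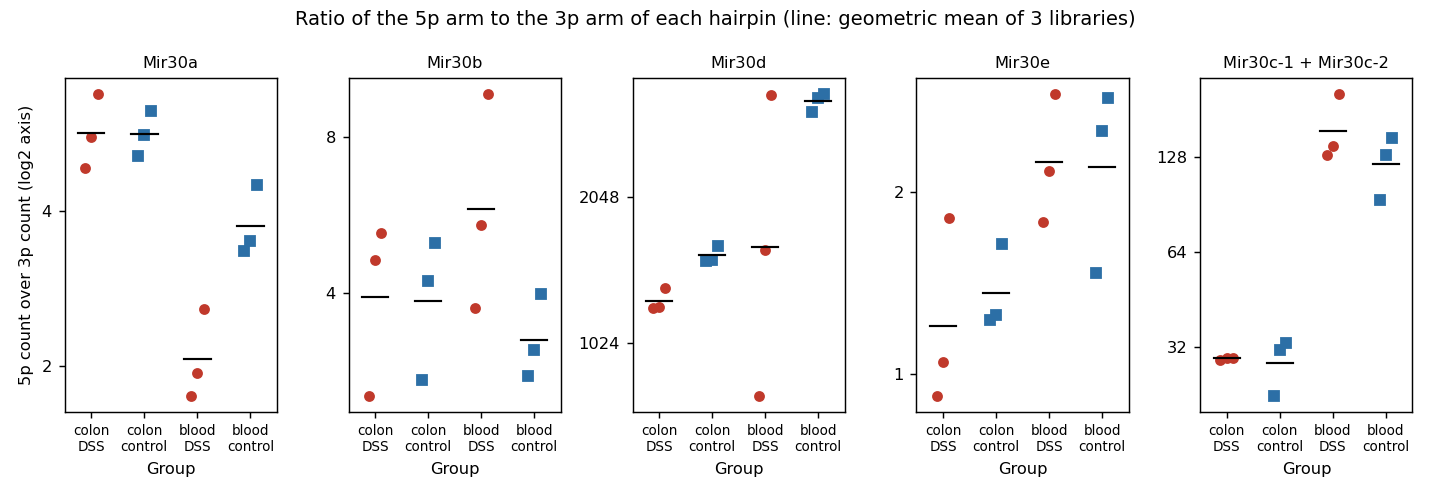
Count of the 5p arm divided by that of the 3p arm for each hairpin, on log2 axes with a scale of their own per panel, for the 4 groups; red circles are DSS mice, blue squares control mice (3 each, drawn in order of value), and lines are geometric means. For Mir30a the blood DSS libraries (1.74 to 2.58) lie below the blood controls (3.35 to 4.49) and all colon libraries, and the Mir30c ratio is higher in every blood library than in every colon library.

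Other miRNAs with a like profile were named by a rule, the smallest root mean square difference from the centred mean log2(CPM + 1) profile of the 5p arms, among miRNAs with a mean of at least 100 CPM. Over the 12 libraries these were miR-181d-5p (0.28 on the log2 scale), miR-151-3p (0.34) and miR-29a-3p (0.44) of 120 compared, where the median was 1.92 and the 5p arms themselves lay at 0.27 to 0.65. Over the 6 colon libraries they were miR-185-5p (0.10), miR-1839-5p (0.11) and miR-1981-5p (0.14) of 131, where the median was 0.35 and the 5p arms lay at 0.07 to 0.22. The points share their libraries and depth, so this is a description of these libraries.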

How the data were processed

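Small RNA of colon and blood was sequenced. The authors trimmed reads with Flexbar, collapsed them with fastx-toolkit and counted them on miRBase mature mouse miRNAs with the miRDeep2 quantifier at default options; the deposited counts are unnormalized. The authors also deposited a normalized signal, the count divided by a DESeq2 size factor within each tissue, used only in an alternative. No molecular identifiers are named, so intervals cover counting error only.

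Counts were tested in R (4.3.3) with edgeR (4.0.16): filterByExpr, TMM, glmQLFit and glmQLFTest, Benjamini-Hochberg adjustment over all miRNAs tested, and an adjusted p of at most 0.05. A standard error was obtained by dividing the log2 fold change, taken without sign, by the root of the F statistic. Alternatives used DESeq2 (1.42.0) and limma (3.58.1, on log2(value + 1)), other scalings, filters and fits, each mouse left out, and the grouping of the labels. Ratios and shares were tested in Python (3.11.15) with scipy (1.17.1), two-sided. Colon and blood with the same number come from the same mouse; their deviations from the group means correlated at -0.30 to 0.16 over 357 miRNAs (mean -0.08). The edgeR steps were tested on simulated data. All members are named, as are the 3 miRNAs of nearest profile over all libraries and the 3 over colon. Members, marker lists and tests were chosen with earlier results of these data known. Mice were separate animals, and in the tests of DSS within a tissue the p-values measure the spread between them. The authors selected the sequenced mice on a disease activity index, a score of weight loss, stool and bleeding. The spread is therefore that of selected animals. Tests over all 12 libraries took them as independent, except where colon and blood were paired by mouse or mouse was a block. The total RNA libraries of the study were not analysed here.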

Additional observations from a re-analysis of the deposited data

Results flagged for a closer look

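Within each tissue, 42 sets of 6 libraries (member levels, shares and arm ratios) were searched for a library that stood apart, by Dixon's ratio of its gap to the nearest library over the whole range (95% critical value for 6 libraries). In 6 of the 42 a library passed, and chance alone gives about 1 in 20. In 3 of them it was blood of DSS mouse 1: the share of miR-30d-5p in the summed 5p counts was 60.4% against 72.8% for the nearest library (ratio 0.84), the share of miR-30b-5p was 0.78% against 0.35% (0.77), and the level of miR-30b-5p was 83.7 CPM against 49.0 CPM (0.78). The shares of a library sum to 100 percent and the last value is for the same counts, so these are not independent.

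Blood of control mouse 2 stood apart for miR-30a-5p, with 1974 CPM against 1230.1 CPM (0.64), and for miR-30e-3p, with 229 CPM against 182 CPM (0.67). Colon of control mouse 8 had the lowest log2 arm ratio of the Mir30c hairpins, 4.49 against 4.86 (0.68). Without mouse 2 the log2 difference of the Mir30a arm ratio between DSS and control blood was -0.73, against -0.86 with it.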

How the results depend on the processing

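In colon, 1 member was called with TMM. The count was 0 with upper-quartile factors, total counts alone, all 12 libraries in 1 fit, limma on the normalized signal or the grouping of the labels, 3 with at least 10 counts in every library or DESeq2, and 0 to 1 with a mouse left out. Over all colon miRNAs, 64 were called, against 16 with RLE, 8 with upper-quartile factors, 4 with limma, 95 with DESeq2 and 0 in 1 fit of 12 libraries. The count was 46 without mouse 1, 38 without mouse 9, and 0 without mouse 2, 4, 7 or 8. With total counts alone the log2 fold changes of miR-30b-5p and miR-30d-3p in colon turned to 0.0422 and 0.0267. With the grouping of the labels, 9 members turned positive in colon: miR-30a-5p 0.15, miR-30a-3p 0.15, miR-30b-3p 0.31, miR-30c-5p 0.45, miR-30c-2-3p 0.21, miR-30d-5p 0.14, miR-30d-3p 0.0417, miR-30e-5p 0.19 and miR-30e-3p 0.23.

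In blood, 0 members were called under any alternative run. miR-30e-5p and miR-30e-3p turned to 0.10 and 0.13 with total counts alone and to 0.18 and 0.18 in 1 fit of 12 libraries, where miR-30c-2-3p turned to 0.0051. With a mouse left out miR-30e-5p ran from -0.35 to 0.31 and miR-30e-3p from -0.17 to 0.0895. The grouping of the labels turned miR-30a-5p to 0.53, miR-30b-3p to 0.13, miR-30e-5p to 0.40 and miR-30e-3p to 0.21. Without a filter edgeR called 25 miRNAs in blood and 27 for the interaction, against 0 and 0.

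Between blood and colon, upper-quartile factors turned miR-30a-3p to 0.72, miR-30b-5p to 0.83, miR-30b-3p to 0.66, miR-30d-3p to 0.93 and miR-30e-3p to 0.36. Total counts alone turned miR-30c-5p to -0.57, miR-30d-5p to -0.36 and miR-30e-5p to -0.71, and no filter turned miR-30c-5p to -0.0526 and miR-30e-5p to -0.19. miR-30e-5p was -0.0576 with mouse as a replicate block, -0.0009 with each sequence once and -0.0127 with the grouping of the labels, and -0.18 to 0.18 with a mouse left out, when miR-30c-5p ran from -0.13 to 0.21. Pairing by mouse as a block called 4 members in place of 6 between the tissues and 0 for the interaction. The paired sign-flip test gave 0 calls for the arm ratios (3 unpaired) and 0 for the shares (2 unpaired). With 2 of 5 items at its smallest p, those items could not go below an adjusted p of 0.0781. Their lost calls therefore say nothing of stability. Mir30e lost its call at a sign-flip p of 0.0625, above that smallest p. The summed share, with no call, had 1 with the deposited total (-0.88 percentage points) or without miR-486 and miR-451a. With a mouse left out, the Mir30b ratio between the tissues ran from -0.20 to 0.36 (log2), the share of miR-30e-5p from -0.54 to 0.13 points and the summed share from -0.0365 to 0.229 points. The causes were not tested. Members under 30 CPM rest on few counts, and 3 mice per group limit every test of DSS.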
